A study of Homo sapiens with 16 samples.

Results

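The Eph receptors and ephrins described here were 10 genes, chosen by name from the array's gene annotation: the receptors EPHA1, EPHA2, EPHA4, EPHB2, EPHB3 and EPHB4 and the ligands EFNA1, EFNA5, EFNB1 and EFNB2. They are 10 of 42665 gene names on the array and were read by 13 of its 58201 probes, 34599 of which were bright enough to test. Expression was measured in 16HBE cells, an immortalised line of human bronchial epithelium, on 16 one-colour arrays. The cells carried wild-type MET (16HBE-WT) or had been edited so that MET skips exon 14 (16HBE-ex14), which removes part of the receptor's juxtamembrane domain. Both were starved of serum for 2 h and then either treated with HGF, the ligand of MET, at 20 ng/mL for 24 h, or given no agent, with 4 arrays in each of the 4 groups. The 16HBE-ex14 cells were 1 clone, clone F, so genotype and clone cannot be told apart in any comparison between the cell lines.

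Eph receptors are receptor tyrosine kinases, and ephrins are ligands held at the surface of the neighbouring cell, A-type by a lipid anchor and B-type by a transmembrane segment. Contact between cells therefore signals both ways, forward through the receptor kinase and in reverse through the ephrin. In epithelia this exchange is known for sorting cells, setting tissue boundaries and regulating junctions, repulsion and migration.

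All 13 probes were well above background and below saturation on all 16 arrays, so every one of the 10 genes was tested and no value is a bound. Signals are given as the log2 level, which is the log2 signal minus the 75th percentile of the same array, so 0 lies at that percentile. A change was called at an adjusted p below 0.05 in limma and a fold change over 1.5, which is 0.585 on the log2 scale. EFNA1 had 10 spots on each array, with a spread between spots of 0.0258 to 0.0825 (SD, log2) on the 16 arrays. EPHB2 had 3 probes and EPHB4 had 2, and the brightest represents each gene. Levels of different genes were not compared, because each probe binds with its own efficiency.

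Between 49.0% and 60.3% of probes stood well above background on an array, and the arrays of a group correlated at 0.983 to 0.992. MET itself had a group mean of 4.97 to 5.16 on the log2 level scale and was called in no comparison. That level reads the gene and was not used to check the skipping of its exon. The arrays lay on 2 slides, each with 2 arrays of every group. All 6 airway epithelial markers were above background on all 16 arrays. Of the 7 fibroblast markers, COL1A2, COL3A1, DCN and PDGFRA were above background on no array and COL1A1 and PDGFRB on all 16. LUM, which encodes the collagen-binding proteoglycan lumican, was above background on all 8 16HBE-WT arrays and on 0 of the 8 16HBE-ex14 arrays.

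The promoters of 3 genes are shown, those of the 2 genes that differed most between the untreated lines (EPHB3 and EFNB2) and of the 1 gene called after HGF (EFNA1). Each is the 250 bases before the start of the gene in RefSeq (GRCh38.p14), 5′ to 3′ on the gene's strand. Capitals mark the SP1 motif GGGCGG and the E-box CAGGTG on either strand. They lie at chr3:184561535-184561784 (plus strand), chr13:106535663-106535912 (minus strand) and chr1:155127626-155127875 (plus strand).
EPHB3: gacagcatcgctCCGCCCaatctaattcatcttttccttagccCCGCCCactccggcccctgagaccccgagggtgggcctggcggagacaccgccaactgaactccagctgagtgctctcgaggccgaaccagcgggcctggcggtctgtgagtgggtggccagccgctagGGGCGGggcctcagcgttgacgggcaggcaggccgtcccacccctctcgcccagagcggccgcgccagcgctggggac
EFNB2: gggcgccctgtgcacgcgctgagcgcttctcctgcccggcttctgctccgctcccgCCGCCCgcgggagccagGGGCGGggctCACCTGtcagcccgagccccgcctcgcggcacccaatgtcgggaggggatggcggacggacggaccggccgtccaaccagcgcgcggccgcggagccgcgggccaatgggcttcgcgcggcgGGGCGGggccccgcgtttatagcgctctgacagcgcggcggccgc
EFNA1: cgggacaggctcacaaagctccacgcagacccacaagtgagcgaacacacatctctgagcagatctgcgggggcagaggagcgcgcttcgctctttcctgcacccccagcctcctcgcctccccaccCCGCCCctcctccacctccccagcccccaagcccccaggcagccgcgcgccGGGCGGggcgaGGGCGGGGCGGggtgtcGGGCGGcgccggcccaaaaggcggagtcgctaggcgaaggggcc

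SP1 is a broadly expressed activator that binds GC-rich promoters. Its motif was found in 10 of 10 of the genes' promoters, against 42.3% of 27305 promoters of the same length. The EFNA1 promoter held 5 matches, 2 of which overlap by a base, and those of EPHB3 and EFNB2 held 3 each. The E-box was found in 3 of 10 (EPHA1, EPHB2 and EFNB2), against 17.5% of all promoters. Neither the AP-1 motif TGANTCA (6.60% of all promoters) nor the ETS motif CCGGAAG (8.80%) matched in any of the 10. GC content was 43.2% for EPHA4, the lowest, and 84.8% for EPHB2, the highest, against a median of 58.0% over all promoters. Every gene but EPHA4 lay above that median. The SP1 motif is made of G and C alone, and the promoters behind the 42.3% were not matched for GC content. These matches describe the letters in the window and no site of binding.

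The first comparison asked how the METex14 clone differed from the wild-type line at rest. In 16HBE-ex14, 4 of the 10 genes were lower, namely the receptors EPHB3, EPHA1 and EPHA4 and the ligand EFNB2, and 0 were called higher. Of all tested probes, 4.88% were called lower, 4.51% higher and 9.40% in either direction. Of these calls 48.03% were higher, against 71.82% with arrays scaled to their median, 70.33% scaled to the spike-ins and 60.04% with normexp. The median log2 fold change was -0.23 over the 10 genes and -0.02 over all tested probes. The groups did not overlap for 4 genes, against 21.4% of all tested probes.

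EPHB3 is a B-type receptor kinase, known in the gut for the positioning of epithelial cells. Its probe lies at chr3:184299825-184299884 (hg19). The EPHB3 log2 levels were 0.28, 0.25, 0.61 and 0.05 on the 16HBE-WT arrays and -1.65, -1.32, -2.35 and -1.51 on the 16HBE-ex14 arrays. Every array of the clone lay more than 1 log2 unit below every wild-type array. The log2 fold change was -2.01 ± 0.21 (SE), a level 4.02-fold lower (limma, adjusted p = 2.106e-05). With HGF, the EPHB3 levels were -0.10, 0.23, 0.07 and 0.42 in 16HBE-WT and -1.57, -1.94, -2.15 and -2.26 in 16HBE-ex14. The groups were again apart, with a log2 fold change of -2.14 ± 0.21 (SE), or 4.39-fold lower (adjusted p = 1.035e-05). The lower level was called under every one of the 17 other settings and with any 1 of the 16 arrays left out, in both comparisons. Within slide 1 the log2 fold change was -1.75 without and -1.82 with HGF, and within slide 2 it was -2.26 and -2.45.

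EFNB2 encodes ephrin-B2, a transmembrane ligand of the EphB receptors and of EphA4 that is known for its part in vessel growth. Its probe lies at chr13:107142736-107142795 (hg19). Its log2 levels without HGF were 0.94, 1.16, 1.41 and 1.45 in 16HBE-WT and 0.46, 0.46, 0.74 and 0.58 in 16HBE-ex14. The highest array of the clone lay below the lowest wild-type array. The log2 fold change was -0.68 ± 0.12 (SE), or 1.60-fold (adjusted p = 0.001519). On slide 1 the value was -0.59 (adjusted p = 0.07518) and on slide 2 it was -0.76 (adjusted p = 0.04975). It fell short of the 1.5-fold limit when arrays were scaled to their median (-0.54), to the spike-in RNAs (-0.55), or after another background correction (normexp, -0.56).

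EPHA1 encodes an A-type receptor found mainly in epithelia. Its log2 levels were -0.78, -0.78, -0.76 and -0.65 in 16HBE-WT and -1.13, -1.51, -1.56 and -1.23 in 16HBE-ex14 without HGF. These groups did not overlap, and the clone's arrays were the more spread. The EPHA1 log2 fold change was -0.61 ± 0.15 (SE, 1.53-fold, adjusted p = 0.01117), so close to the fold limit that the call was lost without 16HBE-ex14 replicate 2 (-0.56) or replicate 3 (-0.55). It was lost too when arrays were scaled to their median (-0.48) or to spike-in RNAs (-0.49), with normexp (-0.42), and within slide 1 (-0.54) or slide 2 (-0.69) alone.

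EPHA4 encodes a receptor that binds both A-type and B-type ephrins. Without HGF its log2 levels were -1.45, -1.11, -0.86 and -1.65 in 16HBE-WT and -1.89, -1.61, -1.82 and -2.18 in 16HBE-ex14. The highest array of the clone (-1.61) lay just above the lowest wild-type array (-1.65), so the groups overlapped. The log2 fold change was -0.61 ± 0.17 (SE, 1.52-fold, adjusted p = 0.02453). Leaving out 16HBE-WT replicate 2 (-0.55), 16HBE-WT replicate 3 (-0.47) or 16HBE-ex14 replicate 4 (-0.51) ended the call, which held under 9 of the 17 other settings. It was -0.47 on slide 1 and -0.75 on slide 2, with neither called.

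EFNA5 encodes ephrin-A5, a lipid-anchored ligand best known for axon guidance, and it went the other way. Its log2 levels were -1.63, -1.57, -1.45 and -1.50 in 16HBE-WT and -1.0, -0.93, -1.02 and -0.96 in 16HBE-ex14. The clone's arrays were all higher, with a gap wider than the spread within either group. The adjusted p of 0.0004373 passed, but the log2 fold change of 0.56 ± 0.09 (SE), or 1.48-fold, stayed under the fold limit and was not called. Scaled to the array median (0.70), to the spike-in RNAs (0.69), within slide 1 (0.64) or without 16HBE-WT replicate 3 (0.59), it was called.

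The other 5 genes were not called between the untreated lines. EPHA2, a receptor common in epithelial cells and bound by ephrin-A1, had a log2 fold change of -0.37 (95% interval -0.81 to 0.08). For EFNA1, the value was 0.27 (-0.07 to 0.61). EPHB2, a receptor for B-type ephrins, gave -0.04 (-0.30 to 0.21), EFNB1, which encodes the ligand ephrin-B1, -0.10 (-0.35 to 0.16), and EPHB4, the main receptor for ephrin-B2, -0.07 (-0.27 to 0.12). These intervals leave changes of over 1.5-fold possible for EPHA2 and EFNA1 and not for the other 3.

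**Figure D1:**
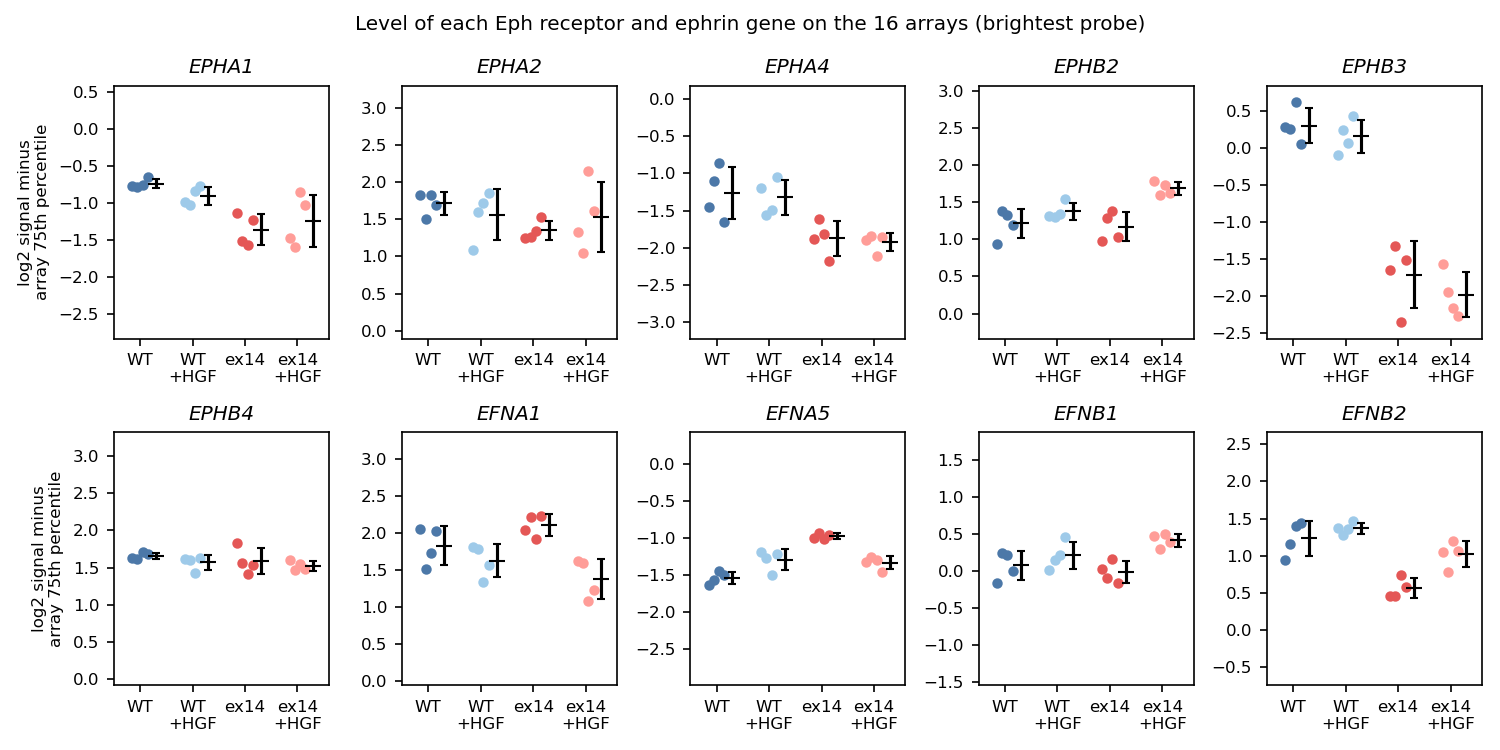
Log2 level (log2 signal minus the array's 75th percentile) of the brightest probe of each gene, with 1 panel per gene, 1 point per array and black bars for the mean ± SD of the 4 arrays of a group; the panels have the same span but different centres. The EPHB3 arrays of 16HBE-ex14 sit between -2.35 and -1.32 and those of 16HBE-WT, with or without HGF, between -0.10 and 0.61.

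Fibroblast marker signal differed between the lines too. The summed signal of the 7 markers, as a multiple of each array's 75th percentile, ran from 0.558 to 1.05 in 16HBE-WT and from 0.334 to 0.517 in 16HBE-ex14, and with HGF from 0.576 to 0.813 and from 0.411 to 0.431. Of the 7 markers, 4 were above background on no array, so the sum rests mainly on COL1A1, LUM and PDGFRB. Of 4 leukocyte markers 3, and of 4 endothelial markers 2, were above background on all 16 arrays of this epithelial line. The summed signals of both of those lists overlapped between the lines. The part of the fibroblast marker signal in the differences of the Eph and ephrin genes was not tested. In such bulk RNA, fewer cells of a type and less RNA per cell cannot be told apart.

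With HGF on both lines, 2 of the 10 genes were lower in 16HBE-ex14, the receptors EPHB3 and EPHA4, and 0 were called higher. Over all tested probes, 5.52% were called lower, 5.32% higher and 10.8% in either direction. The share of calls that were higher was 49.05%, and 65.97% by the array median, 62.91% by the spike-ins and 35.43% with dim probes kept. Groups did not overlap for 4 of the 10 genes (EPHB3, EPHA4, EFNB2 and EPHB2), against 23.9% of all tested probes. EPHA4 levels with HGF were -1.19, -1.55, -1.50 and -1.05 in 16HBE-WT and -1.89, -1.84, -2.11 and -1.85 in 16HBE-ex14. Here the EPHA4 groups were apart. The log2 fold change was -0.60 ± 0.17 (SE, 1.52-fold, adjusted p = 0.02375), and the call was lost without 16HBE-WT + HGF replicate 1 (-0.56) or 4 (-0.51) or 16HBE-ex14 + HGF replicate 3 (-0.54). The slides gave -0.50 and -0.70, with neither called.

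The remaining differences with HGF were smaller. EFNB2 gave a log2 fold change of -0.34 ± 0.12 (SE, adjusted p = 0.06304) and EPHA1 one of -0.33 ± 0.15 (SE, adjusted p = 0.1525). EPHB2 gave 0.31 ± 0.12 (SE, adjusted p = 0.08074), and its other 2 probes 0.18 and 0.05. For EFNA5 the value was -0.04 (95% interval -0.22 to 0.14), against 0.56 without HGF.

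HGF treatment of 16HBE-ex14 asked what MET activation changes in the clone. EFNA1 was the 1 gene of 10 that was called, and it was lower with HGF. Over all tested probes, 0.957% were called lower, 1.05% higher and 2.00% in either direction. Higher ones made up 52.24% of these calls, but 24.11% by the array median and 37.18% by the spike-ins. The groups did not overlap for 5 of the 10 genes, EFNA1, EFNA5, EFNB1, EFNB2 and EPHB2, against 8.84% of all tested probes. EFNA1 and EFNA5 were lower and the other 3 higher with HGF, but of these 5 genes the test called only EFNA1. The other tested ephrins gave smaller log2 fold changes, of 0.10 for EFNA3, 0.10 for EFNA4 and -0.25 for EFNB3, and were not called.

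EFNA1 encodes ephrin-A1, a lipid-anchored ligand that binds EphA2 on epithelial cells and was first described as a gene induced by tumour necrosis factor. Its probe lies at chr1:155106767-155106826 (hg19). Its log2 levels were 2.04, 2.22, 1.92 and 2.23 in 16HBE-ex14 and 1.63, 1.59, 1.08 and 1.23 in 16HBE-ex14 + HGF. All arrays with HGF lay below all those without. The log2 fold change was -0.72 ± 0.16 (SE), or 1.65-fold lower (adjusted p = 0.02592). In 16HBE-WT the levels were 2.05, 1.51, 1.73 and 2.03 without and 1.81, 1.79, 1.33 and 1.57 with HGF. Those groups overlapped, and the log2 fold change was -0.20 ± 0.16 (SE, adjusted p = 0.9997).

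The EFNA1 call held under 12 of the 17 other settings and with 12 of the 16 arrays left out in turn. Without 16HBE-ex14 replicate 2 or 4, or 16HBE-ex14 + HGF replicate 3 or 4, the log2 fold change was -0.68, -0.68, -0.62 and -0.67 and the adjusted p rose to between 0.0862 and 0.09721. The adjusted p was 0.05697 with dim probes kept in the test and 0.07794 with only the 8 arrays compared in the fit. By slide, the difference was -0.52 on slide 1 (adjusted p = 0.4174) and -0.92 on slide 2 (adjusted p = 0.2708), each with 2 arrays a group.

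The levels of EFNA5 were -1.32, -1.25, -1.30 and -1.46 in 16HBE-ex14 + HGF, against the -1.02 to -0.93 of the untreated clone. The groups were apart, with a log2 fold change of -0.36 ± 0.09 (SE, adjusted p = 0.03845), below the fold limit. In 16HBE-WT + HGF its levels were -1.19, -1.26, -1.50 and -1.22, against -1.63 to -1.45 untreated. There the log2 fold change was 0.25 ± 0.09 (SE, adjusted p = 0.8979), upwards and not called. With HGF the 2 lines lay at means of -1.29 ± 0.14 and -1.33 ± 0.09 (SD, n = 4), between the untreated wild type (-1.54 ± 0.08) and the untreated clone (-0.98 ± 0.04). The EFNA5 values of the untreated clone enter both its difference between the untreated lines and its difference with HGF.

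EFNB1 and EFNB2 had higher levels in the clone with HGF on every array, without passing the test, while EFNB3 gave -0.25 (adjusted p = 0.6348). EFNB1 log2 levels were 0.03, -0.10, 0.16 and -0.17 without and 0.47, 0.30, 0.50 and 0.39 with HGF, a log2 fold change of 0.43 ± 0.12 (SE, adjusted p = 0.07034). EFNB2 levels with HGF were 1.05, 0.78, 1.20 and 1.07, against 0.46 to 0.74 without, a log2 fold change of 0.46 ± 0.12 (SE, adjusted p = 0.06099). In each case the 2 groups did not overlap. In 16HBE-WT the log2 fold change was 0.13 for each ligand, with 95% intervals of -0.12 to 0.39 (EFNB1) and -0.13 to 0.40 (EFNB2). The EFNB2 values of the untreated clone enter both this comparison and the one between the lines.

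EPHB2, the receptor named above, was higher in the clone with HGF, by less than the fold limit. Its log2 levels were 0.98, 1.29, 1.38 and 1.03 without and 1.79, 1.60, 1.73 and 1.62 with HGF. The groups were apart, and the log2 fold change was 0.52 ± 0.12 (SE, adjusted p = 0.02935). Its other 2 probes gave 0.45 (adjusted p = 0.05989) and 0.32 (adjusted p = 0.2761), in the same direction. The first probe passed the fold limit (0.59) without 16HBE-ex14 replicate 3. In 16HBE-WT + HGF the levels were 1.32, 1.30, 1.34 and 1.54, overlapping with 0.94 to 1.39 without HGF.

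The other 5 receptors were not called after HGF in the clone. EPHB3, low in the clone, gave a log2 fold change of -0.27 (95% interval -0.73 to 0.18), and EPHA4 one of -0.05 (-0.42 to 0.32). EPHA1 gave 0.12 (-0.21 to 0.45), with arrays with HGF from -1.60 to -0.86. EPHA2 gave 0.18 (-0.26 to 0.63), and its arrays with HGF were spread from 1.04 to 2.15, the widest range of this gene in any group. EPHB4 was at 1.58 ± 0.17 without and 1.52 ± 0.07 with HGF (SD, n = 4), and its levels on all 16 arrays ran from 1.41 to 1.83. Its second, dimmer probe ran from -1.01 to -0.15 and was lower in the clone, with log2 fold changes of -0.25 without HGF (groups that did not overlap, adjusted p = 0.2083) and -0.34 with HGF (adjusted p = 0.08256), neither called.

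**Figure D2:**
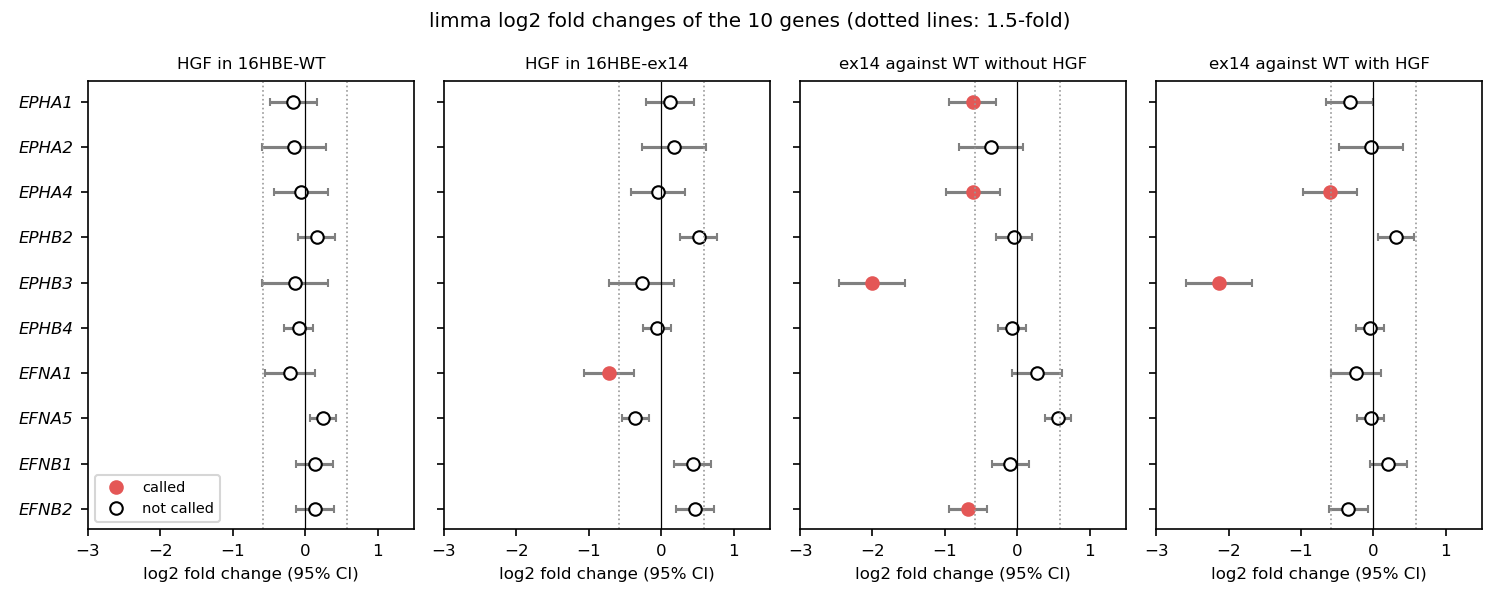
Log2 fold change of each gene (x axis, with its 95% confidence interval) in the 4 comparisons, from limma over all tested probes; red points were called, open points were not, and the dotted lines mark 1.5-fold. EPHB3 is the largest change, at -2.01 and -2.14 between the lines, and EFNA1 (-0.72) is the only red point after HGF.

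HGF in 16HBE-WT changed none of the 10 genes at the threshold (0 of 10, against 0% of all 34599 tested probes). At an unadjusted limma p below 0.05 there was 1 of the 10 genes, EFNA5, and 1694 probes in all. The median log2 fold change over the 10 genes was -0.07, and 0 of them had groups that did not overlap, against 2.62% of all tested probes.

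Whether HGF acted differently in the 2 lines was tested as the difference of its log2 fold changes, and 0 of 10 genes and 0% of all tested probes were called. At an unadjusted limma p below 0.05 there were 2 of the 10 genes, EFNA5 and EFNA1, and 1600 probes. The EFNA5 difference was -0.60 ± 0.12 (SE, 95% interval -0.86 to -0.34, adjusted p = 0.4107), and that of EFNA1 was -0.51 ± 0.23 (SE, adjusted p = 1). When p-values were adjusted over all 5 contrasts together, the EFNA5 difference was called (adjusted p = 0.006653). For EPHB2, EFNB1 and EFNB2 the difference was 0.36, 0.30 and 0.33, each with a 95% interval that reached below 0. The other 2 EPHB2 probes gave 0.37 (95% interval 0.01 to 0.74) and 0.27 (-0.13 to 0.68), neither called.

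The same contrasts were read within each row of a slide, since a row held 1 array of every group. In 16HBE-ex14, the differences with HGF ran from -0.99 to -0.41 for EFNA1 and from -0.50 to -0.28 for EFNA5. EFNB1, EFNB2 and EPHB2 gave 0.33 to 0.56, 0.32 to 0.60 and 0.31 to 0.81. Since the groups of these 5 genes do not overlap, any pairing of their arrays gives 1 sign, and the rows show only the size of the differences. In 16HBE-WT, EFNA5 was higher in 3 of 4 rows and EFNA1 lower in 3 of 4. The labels do not say that a row marks a shared culture.

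Of 12 other genes of the family on the array, 6 were tested. EPHA3, EPHA5, EPHA6, EPHA7 and EPHA8 were well above background on no array, and EFNA2 on 2. Among the tested ones (EPHA10, EPHB1, EPHB6, EFNA3, EFNA4 and EFNB3), 1 was called. EPHB6, a receptor whose kinase domain lacks catalytic activity, was higher in 16HBE-ex14. Its log2 level was -0.48 ± 0.24 in 16HBE-WT and 0.30 ± 0.29 in 16HBE-ex14 (SD, n = 4), a log2 fold change of 0.78 ± 0.17 (SE, adjusted p = 0.004979). With HGF the difference was 0.98 ± 0.17 (SE, adjusted p = 0.0009255), and HGF itself gave 0.27 in the clone (adjusted p = 0.5224) and 0.08 in 16HBE-WT. So the receptors with a call between the lines were EPHB3, EPHA1 and EPHA4, which were lower, and EPHB6, which was higher.

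Genes that act downstream of Eph receptors and ephrins, or turn them over, were read from a list of 32, of which 30 were tested. The list and its counts also held the cadherins CDH1 and CDH2. After HGF in 16HBE-ex14, 2 of the 30 were called higher and 0 lower, against 2.00% of all tested probes called in either direction. Without HGF, 4 were higher and 1 lower in the clone, against 9.40% of all tested probes, and with HGF 5 were higher and 1 lower, against 10.8%. These counts use the brightest probe of each gene. After HGF in the clone, CDH1 (-0.58, adjusted p = 0.03467) and RASA1 (0.32, adjusted p = 0.03489) passed on the adjusted p but not the fold limit. Among dimmer probes, one of CHN2 (-1.11 without HGF) and one of KALRN (-0.74 with HGF) were called lower in the clone. The brightest probes of these genes gave 0.38 and 0.27 in the same comparisons, not called. A dimmer NGEF probe was called higher in the treated clone than in the treated wild type (1.43), and those of ITSN1 are given below. In 16HBE-WT, HGF changed 0 of 30. The median log2 fold changes of the 30 genes were -0.07 (HGF in the clone), 0.02 (between the untreated lines) and -0.10 (between the treated lines), against 0.05 and -0.02 over all tested probes in the first and the second of these.

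NGEF, which encodes ephexin, the guanine nucleotide exchange factor that Eph receptors bind, was the gene of this list that rose most after HGF in the clone. Its log2 level was 0.73 ± 0.24 in the wild type and 0.98 ± 0.28 in the clone without HGF (SD, n = 4), and with HGF it was 1.11 ± 0.13 and 2.29 ± 0.12. The clone with HGF stood apart from the other 3 groups. HGF gave a log2 fold change of 1.31 ± 0.15 (SE, adjusted p = 0.0006832) in the clone and 0.38 ± 0.15 (SE, adjusted p = 0.9502) in 16HBE-WT, and the difference of 0.93 ± 0.21 (SE) had an adjusted p of 0.4523. A dimmer NGEF probe gave 0.88 in the clone and was not called.

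FYN, a SRC-family kinase that acts on both sides of the contact, was lower in the untreated clone and rose there with HGF. Its log2 level was 1.72 ± 0.13 in 16HBE-WT and 0.99 ± 0.22 in 16HBE-ex14 (SD, n = 4), a log2 fold change of -0.73 ± 0.12 (SE, adjusted p = 0.00078). With HGF it reached 1.60 ± 0.11 in the clone, a rise of 0.61 ± 0.12 (SE, adjusted p = 0.01431) that was called under 1 of the 4 other scalings or background corrections. In 16HBE-WT + HGF the level was 1.83 ± 0.16, and the 2 treated lines were not called apart (-0.24, adjusted p = 0.2013). The FYN values of the untreated clone enter both called differences.

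Of the other listed genes, ABL1, RASA1, VAV3 and RGS3 were higher in 16HBE-ex14 with and without HGF. ABL1, a tyrosine kinase of the cytoskeleton, gave 1.26 and 1.37, but its second probe 0.56 and 0.16, which were not called. RASA1, a RAS GTPase activator that binds EphB receptors, gave 0.59 and 0.80, and the first was called under 2 of the 4 other scalings or background corrections. VAV3, a guanine nucleotide exchange factor, gave 0.95 and 1.16, but 0.35 and 0.45 under normexp, where neither was called. RGS3, a regulator that binds B-type ephrins in reverse signalling, gave 0.80 and 0.99, but its second probe -0.02 and -0.39. ITSN1, an exchange factor for CDC42 that binds EphB2, was lower with HGF (-0.82) and without HGF gave -0.54, while its other 2 probes were called lower in both.

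**Figure D3:**
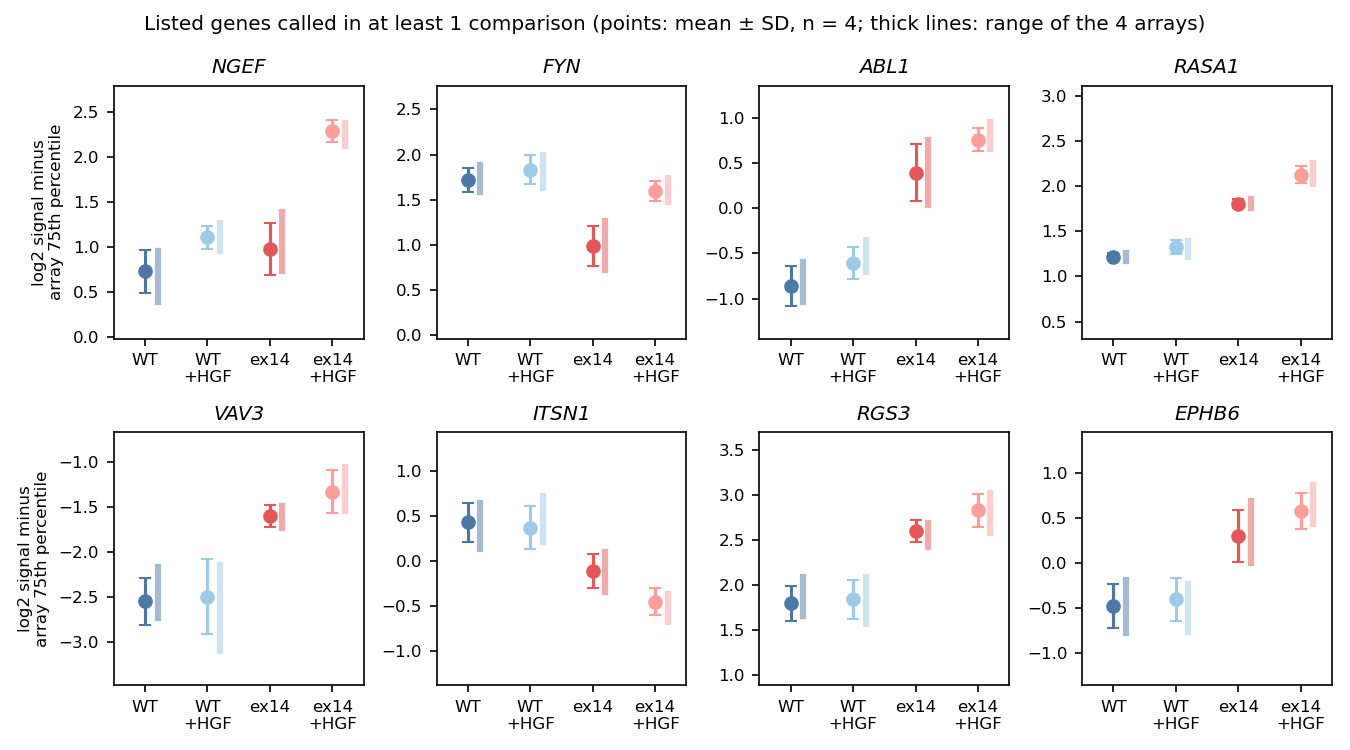
Log2 level of the 7 listed signalling genes called in at least 1 comparison and of EPHB6, as the mean ± SD of 4 arrays (points and thin bars) with their range (thick bars), in the 4 groups. NGEF is highest in 16HBE-ex14 + HGF (2.29), and FYN is lowest in untreated 16HBE-ex14 (0.99).

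The genes whose pattern over the 16 arrays was most like that of a called member were found by Pearson correlation over 26335 gene names, as a description. The arrays of a group are not independent of its treatment and clone. EPHB3 was most like ELOVL2 (0.989), CPT1C (0.985) and TRABD2A (0.983). For EFNB2 these were ARPC2 (0.957), TSPAN18 (0.956) and IER5 (0.956), and for EFNA1 they were ANXA9 (0.955), TMEM52B (0.933) and ID4 (0.92). EPHA1 was most like ABTB1 (0.918), MTRF1L (0.909) and LYG1 (0.905), and EPHA4 most like FCHO1 (0.917), ARTN (0.911) and PLB1 (0.91). None of the 10 members or of the listed signalling genes was among these. With the group means taken out, the named pairs gave an r of 0.728 (EPHA4 and ARTN) to 0.883 (EPHA1 and ABTB1).

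**Figure D4:**
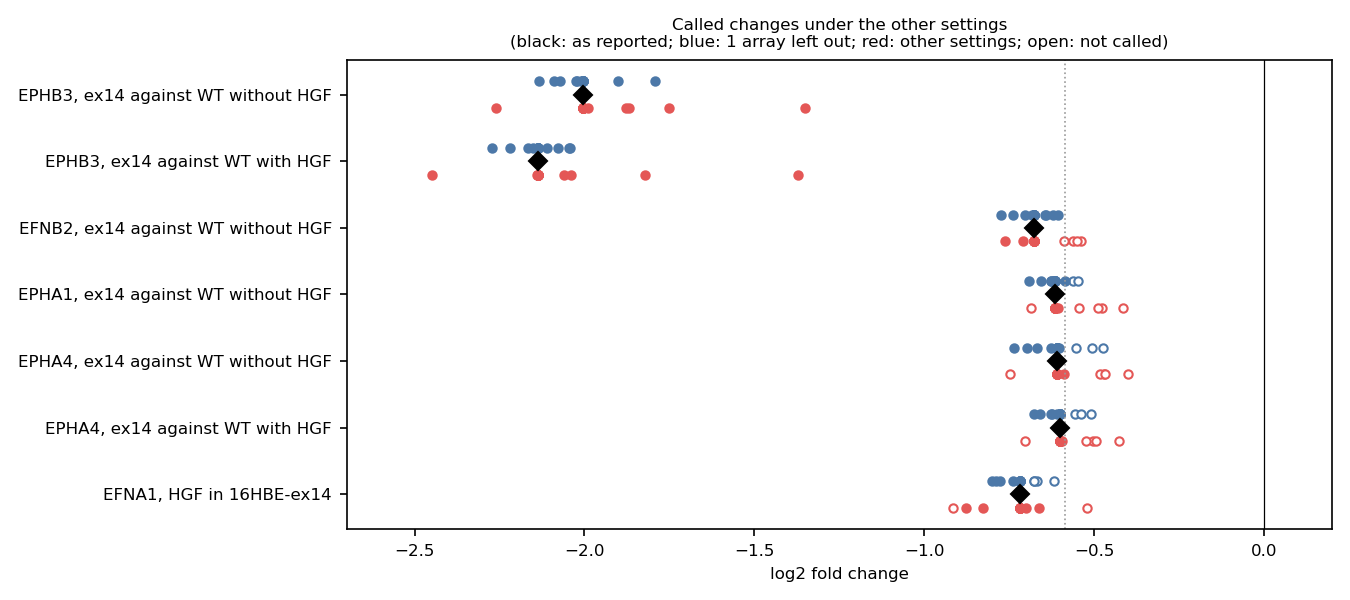
Log2 fold change of each called member (rows) as reported (black), with 1 array left out (blue) and under the 17 other settings (red); open circles were not called, and the dotted line marks 1.5-fold. EPHB3 lies between -2.45 and -1.35 with every circle filled. The other called genes lie between -0.92 and -0.40, with open circles on both sides of the line.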

How the data were processed

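Total RNA of 16 cultures in 4 groups was hybridised to one-colour 60-mer arrays (Agilent). The deposited values are the intensity of each spot as the authors' Feature Extraction software (version 10.7.3.1) wrote it, background-subtracted on a linear scale and not normalised between arrays. The series value table held the same numbers for all 62976 spots and was only compared with them. From there, control spots and outlier flags were left out, log2 intensities were set against each array's 75th percentile, and replicate spots were averaged by probe. A probe entered the test if 4 or more of the 16 arrays had it well above background, which 34599 did. A model with 1 mean per group was fitted to all of them with limma 3.58.1 in R 4.3.3, with 5 contrasts and Benjamini-Hochberg adjustment per contrast; the scripts were tested on simulated data. The study names limma in its methods, and an adjusted p below 0.05 with a 1.5-fold limit in its results. Figures were drawn with matplotlib 3.10.9.

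Probe positions are those of the array's annotation (hg19), and all 10 symbols matched RefSeq. Groups came from the genotype and agent labels; the titles of the treated wild-type arrays read YY. Named were all 10 members, the other Eph and ephrin genes, a list of signalling genes and cadherins, and the 3 genes most like each called member. The members and the lists were chosen with earlier results of these data known. The methods describe 4 replicates a week of culture apart, but no label ties an array to a week, so the p-values measure the spread between these arrays. Replicate numbers follow deposit order. Precision is limited by 4 arrays a group. The alternatives covered background, scaling, the filter, slide and slide row as blocks, each slide alone, the test and each array left out.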

Additional observations from a re-analysis of the deposited data

Results flagged for a closer look

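In 3 of 40 sets of 4 arrays (10 genes in 4 groups), 1 array lay far from the other 3; chance gives this in about 1 set of 20. EPHA1 was at -0.65 in 16HBE-WT replicate 4, above the next array at -0.76. EPHB2 was at 1.54 in 16HBE-WT + HGF replicate 4, above the next at 1.34. EPHB4 was at 1.42 in 16HBE-WT + HGF replicate 3, below the next at 1.60.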

How the results depend on the processing

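No fold change of a called member reversed under the 17 other settings or with any of the 16 arrays left out, and EPHB3 was called in all of them. Of the 10 genes, 4 were called between the untreated lines as reported. The count was 1 (EPHB3) under normexp background and under a test of the fold limit itself (treat). It was 2 with scaling to the array median or to the spike-ins and within slide 1 or slide 2. By the array median, by the spike-ins and within slide 1 these were EPHB3, lower, and EFNA5, higher. Within slide 2 they were EPHB3 and EFNB2, both lower. Between the treated lines (2 as reported) the count was 1 under each of these settings and with p-values adjusted over the 5 contrasts together. That last setting gave 1 gene (EFNA5) for the difference of the HGF responses. After HGF in 16HBE-ex14 (1 as reported) it was 0 with no filter on dim probes, within slide 1, within slide 2, with only the groups compared in the fit, and with treat. Leaving out 1 array gave 3 to 4 genes between the untreated lines, 1 to 2 between the treated lines and 0 to 2 after HGF in 16HBE-ex14. Without 16HBE-WT replicate 3, the 4 genes between the untreated lines held EFNA5, higher, in place of EPHA4. Within a slide, 2 arrays a group leave few degrees of freedom. The cause of the other losses was not tested. Over all tested probes, the calls between the untreated lines, between the treated lines and after HGF in 16HBE-ex14 (3252, 3749 and 693 as reported) numbered 1489, 1814 and 411 under normexp, 1426, 1670 and 0 within slide 1, 841, 1562 and 0 within slide 2, and 444, 603 and 5 with treat. After HGF in 16HBE-ex14 they numbered 246 with only the groups compared and at least 346 with 1 array left out. Adjusted over the 5 contrasts together, 85 were called after HGF in 16HBE-WT and 162 for the difference of the responses.

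Scaling to the array median moved the median log2 fold change of all probes from -0.02 to 0.12 between the untreated lines, from -0.00 to 0.09 between the treated lines and from 0.05 to -0.11 after HGF in 16HBE-ex14. The share of calls that were higher moved with the scaling, as given beside each comparison. No label says that arrays of different groups share a culture, but each row of a slide held 1 array of every group. With the slide row as a replicate block, 4, 2 and 1 of the 10 genes were called in the same 3 comparisons, the same genes as reported, and 3449, 3994 and 734 of all tested probes. The slide as a block kept every call of a member too.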
